A study of Homo sapiens with 24 samples.

Results

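Sterol and fatty acid synthesis genes were followed in THP-1, a monocyte-like human cell line derived from a leukaemia, after its differentiation to a macrophage state. The list holds 32 genes chosen by symbol: the enzymes that build cholesterol and fatty acids, the SREBP factors with their partners SCAP and INSIG, and the sterol carrier STARD4. All 32 were found among 38735 named genes, and 31 of them were among the 13900 genes tested. The series has 24 poly-A RNA libraries in 4 groups of 6, with replicates named by the letters A to F. Cells of every group, Control included, had first been given 100 nM of the phorbol ester PMA for 24 h. Control cells then stayed in medium alone. The DCVC group was exposed over 24 h to 5 µM of DCVC, S-(1,2-dichlorovinyl)-L-cysteine, a metabolite of the solvent trichloroethylene. After fresh medium had been given, the LPS group was stimulated over 4 h with lipopolysaccharide at 100 ng/mL. The DCVC_LPS group had both exposures, DCVC first. The study asked how DCVC alters the inflammatory response of these cells to LPS, a part of the outer membrane of gram-negative bacteria. A single cell line stands in for macrophages here, and the labels do not say that the letters are separate cultures, so p-values measure the spread between these libraries, which may be technical.

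Cholesterol is made from acetyl-CoA through mevalonate, isoprenoid diphosphates, squalene and lanosterol, and fatty acids are made from the same acetyl-CoA through malonyl-CoA, then elongated and desaturated. Both routes are switched on by the SREBP factors, which are made as membrane precursors. SCAP carries them from the endoplasmic reticulum to the Golgi when sterols are low, where proteases release the active factor, and INSIG proteins hold SCAP back when sterols are high. In macrophages the cholesterol route is also known to be under control of inflammatory signals and of the liver X receptors, which respond to oxidised sterols and raise cholesterol efflux.

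Promoter windows were taken from RefSeq on GRCh38.p14, from 250 bases before to 50 bases after each gene's start, and 28 of the 32 genes matched, with 39 windows. Of these, 7 genes with a single window are printed. SREBF2 is shown because it alone held the sterol regulatory element core, MVK, MSMO1 and EBP because they had among the lowest levels after LPS relative to Control, and STARD4, INSIG1 and LSS because they had the highest. They were picked after their values had been seen. Each is written 5′ to 3′ on the strand of its gene, with capitals for the sterol regulatory element core TCACNCCAC and for the NF-Y box CCAAT or its complement.
SREBF2 (chr22:41832855-41833154, plus strand): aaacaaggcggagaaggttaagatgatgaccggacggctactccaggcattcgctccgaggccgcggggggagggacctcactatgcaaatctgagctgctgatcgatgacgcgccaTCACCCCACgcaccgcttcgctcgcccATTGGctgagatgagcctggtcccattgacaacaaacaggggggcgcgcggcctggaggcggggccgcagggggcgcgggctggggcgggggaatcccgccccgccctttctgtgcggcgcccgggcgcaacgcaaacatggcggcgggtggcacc
MVK (chr12:109573544-109573843, plus strand): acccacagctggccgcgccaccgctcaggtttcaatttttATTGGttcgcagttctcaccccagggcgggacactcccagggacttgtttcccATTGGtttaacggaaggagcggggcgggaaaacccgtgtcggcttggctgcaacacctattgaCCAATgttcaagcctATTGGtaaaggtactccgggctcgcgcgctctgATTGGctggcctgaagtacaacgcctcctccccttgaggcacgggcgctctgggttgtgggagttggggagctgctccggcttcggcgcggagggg
MSMO1 (chr4:165327419-165327718, plus strand): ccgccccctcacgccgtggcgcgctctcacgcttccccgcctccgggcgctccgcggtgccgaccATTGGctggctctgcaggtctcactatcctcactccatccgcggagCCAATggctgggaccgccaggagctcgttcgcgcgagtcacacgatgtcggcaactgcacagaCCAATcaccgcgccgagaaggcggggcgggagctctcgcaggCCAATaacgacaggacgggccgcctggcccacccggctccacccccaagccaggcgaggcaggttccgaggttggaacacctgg
EBP (chrX:48521558-48521857, plus strand): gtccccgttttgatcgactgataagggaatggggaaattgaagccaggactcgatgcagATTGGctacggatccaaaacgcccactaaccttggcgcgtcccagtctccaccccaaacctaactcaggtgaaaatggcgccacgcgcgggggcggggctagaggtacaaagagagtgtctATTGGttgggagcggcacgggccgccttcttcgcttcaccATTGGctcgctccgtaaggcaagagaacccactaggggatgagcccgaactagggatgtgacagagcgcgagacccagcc
STARD4 (chr5:111512486-111512785, minus strand): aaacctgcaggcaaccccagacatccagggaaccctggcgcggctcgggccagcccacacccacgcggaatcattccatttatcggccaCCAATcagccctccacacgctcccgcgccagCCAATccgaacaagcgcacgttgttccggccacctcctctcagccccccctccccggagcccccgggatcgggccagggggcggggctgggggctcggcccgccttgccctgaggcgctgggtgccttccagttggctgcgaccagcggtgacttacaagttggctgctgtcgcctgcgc
INSIG1 (chr7:155297628-155297927, plus strand): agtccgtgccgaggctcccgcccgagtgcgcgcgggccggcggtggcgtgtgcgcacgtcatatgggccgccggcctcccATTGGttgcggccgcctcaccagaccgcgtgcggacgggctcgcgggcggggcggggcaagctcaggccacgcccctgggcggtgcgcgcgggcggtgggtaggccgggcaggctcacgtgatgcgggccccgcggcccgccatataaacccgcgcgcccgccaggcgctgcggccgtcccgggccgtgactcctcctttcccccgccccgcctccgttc
LSS (chr21:46228725-46229024, minus strand): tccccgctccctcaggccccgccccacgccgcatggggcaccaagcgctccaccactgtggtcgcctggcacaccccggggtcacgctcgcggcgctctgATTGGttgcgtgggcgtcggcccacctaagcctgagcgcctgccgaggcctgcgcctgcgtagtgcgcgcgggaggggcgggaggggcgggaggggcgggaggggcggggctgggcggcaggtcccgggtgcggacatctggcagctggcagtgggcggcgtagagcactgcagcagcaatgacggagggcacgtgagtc
The core TCACNCCAC, searched on both strands, occurred in 1 of 28 genes, the SREBF2 promoter, at base -133 from the start and followed by an inverted CCAAT at -106. Among all 35116 windows of this length 1.13% held it, and among all genes 1.39%. ACAT2, FDFT1, SQLE and FASN had no window and were not searched. Variants that depart from the letters of the core were not searched either, so other genes may hold such a variant. CCAAT, on either strand, occurred in 21 of 28 genes and 25 of 39 windows, against 34.6% of all windows and 39.7% of all genes. MVK held 5 copies in its window, MSMO1 held 4, and INSIG1 and LSS held 1 each, with EBP and STARD4 between MSMO1 and these last. NSDHL, not called with LPS, also held 5, while PMVK and TM7SF2, which fell with LPS, held 0 and 1. A link between the number of copies and the change with LPS was not tested. The GC box GGGCGG, on either strand, occurred in 27 of 28 genes, against 48.3% of all genes. Matches of different motifs could share bases. These matches describe letters in the windows and were not tested as binding sites.

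Levels are normalized counts, that is, reads divided by the authors' factor for each library, and between 18478618 and 30107819 reads per library were recovered from them. The normalized totals differed between groups and were highest in LPS, at 29427331 ± 839114 (mean ± SD, n = 6), and lowest in DCVC, at 17774466 ± 305501. Scaling every library to the same total moved the median change of all tested genes by -0.47 in LPS minus Control, 0.25 in DCVC minus Control, 0.43 in DCVC_LPS minus LPS, -0.29 in DCVC_LPS minus DCVC and 0.18 in the interaction on the log2 scale, so the counts below are also given at equal totals, with the genes that entered or left them. Of 10 macrophage and monocyte markers, 9 had a mean of at least 10 in Control and all 10 had it in the other groups. CD68, a marker commonly used for macrophages, was low in Control, with a mean of 5.28, and stood at 15.6 in DCVC, 11.1 in LPS and 25.5 in DCVC_LPS. The lowest and highest library sums of these markers were 98522 and 124462 in the Control group. With DCVC the sums lay between 67134 and 75180, with LPS between 56499 and 65632, and with both between 54079 and 58071. MSR1 and CSF1R were the largest, with Control means of 33422 and 32211 and DCVC means of 14136 and 24209. LYZ went the other way, from 1455 in Control to 3223 in DCVC and 3716 in DCVC_LPS. With DCVC 6 of the 10 markers fell and 2 rose (limma adjusted p under 0.05), beside 32.2% and 27.5% of all tested genes. With LPS 6 fell and none rose, beside 40.6% and 37.8%. Of the 7 lymphocyte markers at most 2, and of the 8 fibroblast and epithelial markers at most 2, reached a mean of 10 in a group, and CD2 had no reads in any library. The part of the macrophage marker level in the changes below was not tested, and in these bulk libraries fewer cells of a type and less RNA per cell cannot be told apart.

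LPS alone moved these genes in both directions, with more of them lowered than raised. Relative to Control, 16 of 31 genes fell and 8 rose (limma on log2(value + 1), Benjamini-Hochberg adjusted p under 0.05), where 40.6% of all tested genes fell and 37.8% rose. Their median change was -0.40 on the log2 scale against -0.03 over all genes. The genes that rose were led by STARD4 at 7.82-fold and INSIG1 at 6.52-fold, followed by the lanosterol synthase gene LSS at 3.38-fold and the fatty acid synthase gene FASN at 2.24-fold. SC5D, MVK and MSMO1, which act early and late in the sterol route, stood at 0.216, 0.226 and 0.245 of their Control level. At equal totals 19 genes fell and 5 rose, against 59.5% and 22.4% of all genes, with a median of -0.88 against -0.5 over all genes. The share that fell was then close to that of all genes. There MVD, CYP51A1 and SCAP also fell, and SQLE, ACACA and ACLY were not called. Within the letter pairs A and B, C and D, and E and F the median was -0.46, -0.50 and -0.49. All LPS libraries lay below all Control libraries for 14 genes and above them for 6, beside 28.1% and 28.7% of all tested genes.

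DCVC alone moved fewer of them, and mostly upward. Relative to Control, 10 of 31 rose and 2 fell, against 27.5% and 32.2% of all tested genes, with a median of 0.27, or 0.52 at equal totals. The squalene epoxidase gene SQLE rose 2.17-fold, the stearoyl-CoA desaturase gene SCD 2.14-fold and the fatty acid desaturase gene FADS1 2.02-fold, while STARD4 stood at 0.574 of Control and SREBF1, the gene of the SREBP-1 factors, also fell. At equal totals 19 rose and 1 fell, against 46.1% and 20.1% of all genes, as HMGCS1, MVK, PMVK, MVD, FDPS, SREBF2, SCAP, INSIG2 and ACSS2 passed the threshold and SREBF1 no longer did. With the letter as a block 18 rose and 3 fell, against 31.4% and 36.7% of all genes, as HMGCS1, MVK, PMVK, MVD, FDPS, CYP51A1, SREBF2, FADS2 and, downward, EBP passed it. The number that rose was 21 within letters A and B, 17 within C and D, and 4 within E and F, with medians of 0.54, 0.21 and 0.20. Of all tested genes, 2294 rose within E and F, beside 3820 in the fit of all letters. Within A and B, and within C and D, that number stayed within 1.5 times of 3820. Without DCVC replicate B the count of raised genes among the 31 was 5, and without Control replicate F it was 6. Over all removals of a letter or library, 3338 to 3869 of all tested genes rose.

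In cells given LPS, DCVC pretreatment moved 29 of the 31. Relative to LPS, 22 rose and 7 fell in DCVC_LPS, against 33.3% and 39.4% of all tested genes, with a median of 0.78 against -0.07 over all genes. At equal totals 24 rose and 5 fell, against 54.5% and 21.9% of all genes, with a median of 1.21, as SCAP and ACLY rose and LSS was not called. FADS1 rose 5.16-fold, HSD17B7 4.93-fold, MSMO1 4.83-fold, SC5D 4.54-fold and MVK 4.26-fold. STARD4 stood at 0.191 and INSIG1 at 0.425 of their LPS level. Within the 3 letter pairs the median was 1.15, 0.71 and 0.58. All DCVC_LPS libraries lay above all LPS libraries for 10 genes and below them for 6, beside 22.4% and 29.4% of all tested genes.

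LPS in cells that had received DCVC moved fewer genes past the threshold. Relative to DCVC, 5 rose and 7 fell, against 29.9% and 32.2% of all tested genes, with a median of -0.09, or -0.38 at equal totals. INSIG1 rose 3.12-fold, STARD4 2.6-fold and SQLE 1.74-fold, while the genes of the sterol isomerase EBP and the acetyl-CoA synthetase ACSS2 fell, with changes of -0.94 and -0.81 on the log2 scale. At equal totals 3 rose and 11 fell, against 16.3% and 52.7% of all genes, as MVK, FDFT1, DHCR7 and ACLY fell and LSS and FASN were not called. With the letter as a block 9 rose and 13 fell, against 33.6% and 36.5%. Without DCVC replicate F the number that rose was 3, as it was without letter C or without letter D. Over all removals of a letter or library, 3812 to 4201 of all tested genes rose.

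**Figure D1:**
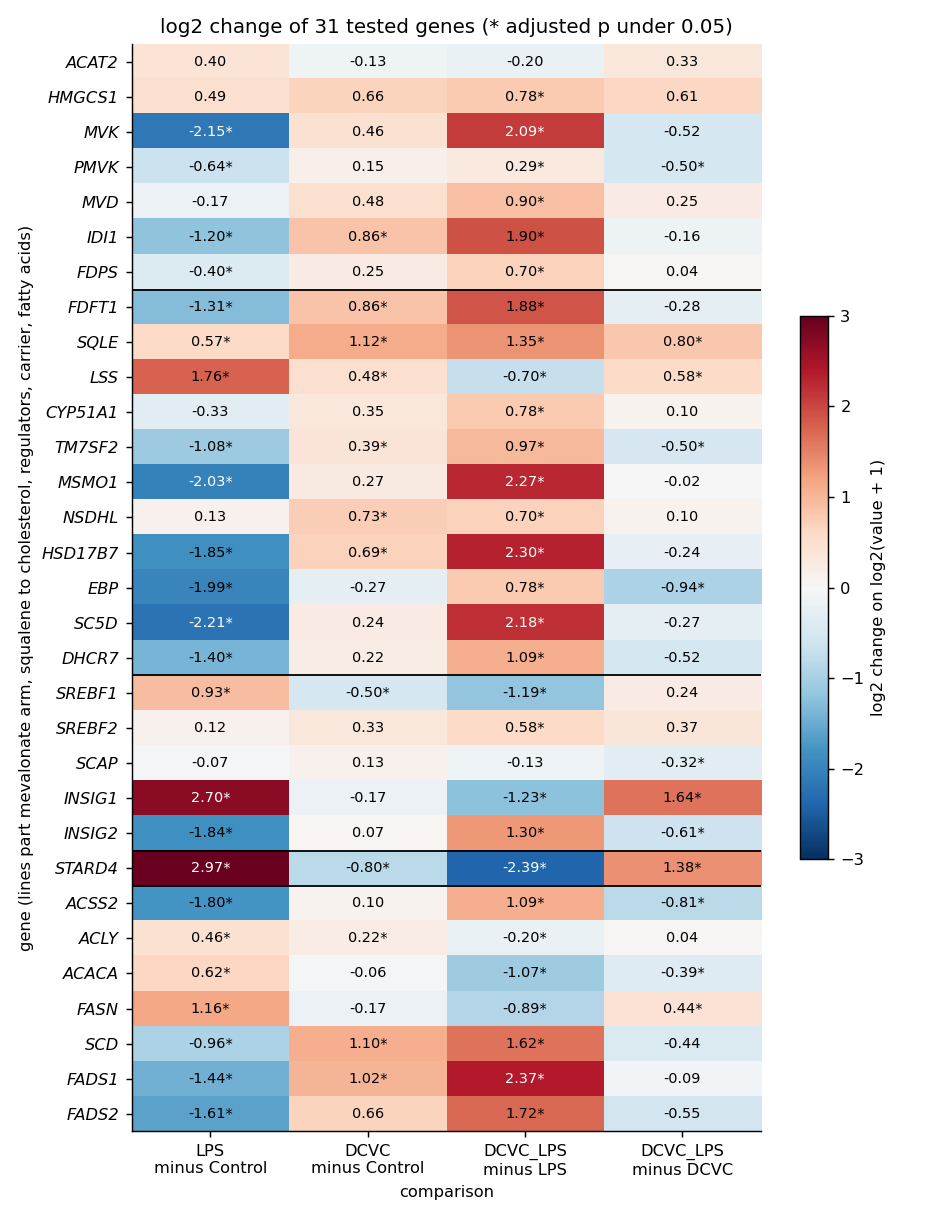
Colour and number give the log2 change, on the log2(value + 1) scale, of the 31 tested genes (vertical axis, in pathway order) in 4 pairwise comparisons (horizontal axis), and an asterisk marks an adjusted p under 0.05. LPS minus Control has 16 lowered and 8 raised genes and DCVC_LPS minus LPS 7 lowered and 22 raised, and these columns share the LPS libraries. Some of the smaller changes turn sign at equal totals, among them those of ACLY and SCAP.

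The mevalonate arm, 7 genes from acetyl-CoA to farnesyl diphosphate, had 4 genes that fell and none that rose with LPS, beside 40.6% and 37.8% of all tested genes, and 5 that fell at equal totals, beside 59.5%. Relative to LPS, DCVC_LPS had 6 that rose and none that fell, as at equal totals, beside 33.3% of all genes and 54.5% at equal totals. DCVC alone raised 1 of them, IDI1, beside 27.5% of all genes, and at equal totals 6, beside 46.1%, with ACAT2 left uncalled. LPS after DCVC lowered 1, PMVK, beside 32.2% of all genes, and at equal totals 2, beside 52.7%.

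MVK, the kinase that phosphorylates mevalonate, had a lowest, median and highest level of 157, 247 and 427 in Control, 216, 317 and 649 in DCVC, 37.0, 54.9 and 87.2 in LPS, and 112, 238 and 443 in DCVC_LPS. All 6 LPS libraries lay below every library of the other groups, which overlapped one another. MVK fell by 2.15 ± 0.30 (SE) on the log2 scale with LPS (limma adjusted p = 6.13e-07) and stood 2.09 ± 0.30 higher in DCVC_LPS than in LPS (limma adjusted p = 1.26e-06). With the letter as a block it also rose with DCVC, by 0.46 (limma adjusted p = 0.0034), and fell in DCVC_LPS relative to DCVC, with a change of -0.52 (limma adjusted p = 0.00123).

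IDI1, the isopentenyl diphosphate isomerase, had 775, 1021 and 1092 in Control, 1045, 1769 and 2709 in DCVC, 305, 454 and 486 in LPS, and 822, 1584 and 2526 in DCVC_LPS. Its LPS libraries were again below all others, and DCVC and Control overlapped at their edges. IDI1 fell by 1.20 ± 0.23 with LPS (limma adjusted p = 4.77e-05), rose by 0.86 ± 0.23 with DCVC (limma adjusted p = 0.0026) and was 1.90 ± 0.23 higher in DCVC_LPS than in LPS (limma adjusted p = 8.34e-08).

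HMGCS1, which makes HMG-CoA, went another way, with 1115, 1769 and 2547 in Control, 1488, 2549 and 5073 in DCVC, 1717, 2511 and 3442 in LPS, and 2246, 3766 and 8335 in DCVC_LPS. All 4 groups overlapped. Its change with LPS was 0.49 ± 0.31 (limma adjusted p = 0.15) and with DCVC 0.66 ± 0.31 (limma adjusted p = 0.0675). With the letter as a block both were called, as was the change in DCVC_LPS relative to DCVC (limma adjusted p = 0.000195, 9.88e-06 and 2.23e-05). At equal totals the change with LPS was not called, with or without the block, while that with DCVC was 0.91 (adjusted p 0.0104). Over all 44 alternatives the change with LPS lay between 0.01 and 0.6 and was called in 4. HMGCS1 rose by 0.78 ± 0.31 in DCVC_LPS relative to LPS (limma adjusted p = 0.0257), a call lost without DCVC_LPS replicate A, DCVC_LPS replicate B or LPS replicate F, with 0.59 and an adjusted p of 0.0828 without DCVC_LPS replicate B.

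Of the other mevalonate genes, PMVK, the next kinase, fell by 0.64 with LPS and fell by 0.50 in DCVC_LPS relative to DCVC, and rose by 0.29 in DCVC_LPS relative to LPS. FDPS, the farnesyl diphosphate synthase, fell by 0.40 with LPS and rose by 0.70 in DCVC_LPS relative to LPS. The fall of FDPS lost its call without Control replicate A, Control replicate B, LPS replicate C or LPS replicate F, with -0.31 and an adjusted p of 0.09 in the last case. The rise of PMVK lost its call without DCVC_LPS replicate B (0.24, adjusted p 0.0810) or without LPS replicate C, D or E. MVD, the mevalonate diphosphate decarboxylase, changed by -0.17 with LPS, by 0.48 with DCVC (limma adjusted p = 0.0598) and by 0.25 in DCVC_LPS relative to DCVC, each past the threshold with the block, and it rose by 0.90 in DCVC_LPS relative to LPS. At equal totals these values were -0.64, 0.73 and -0.05, the first and the second past the threshold (adjusted p 0.00758 and 0.00395), and the change with DCVC was also called with TMM factors, edgeR and DESeq2. ACAT2, the cytosolic thiolase, was not called in any pairwise comparison, with 0.40 in LPS minus Control (limma adjusted p = 0.11), which was called with the block and in a fit of only the groups compared (adjusted p 0.0365). Its value is uncertain, because 26.5% of its exon bases overlap those of SOD2 on the opposite strand, whose mean level was 94940 against 596, and the labels do not say whether counting used the strand.

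The squalene-to-cholesterol arm, 11 genes, had 7 that fell and 2 that rose with LPS, beside 40.6% and 37.8% of all tested genes. At equal totals 8 fell and 1 rose with LPS, beside 59.5% and 22.4%. With DCVC 6 rose at either scaling, beside 27.5% of all genes, or 46.1% at equal totals. Relative to LPS, 10 rose and 1 fell in DCVC_LPS, beside 33.3% and 39.4%, and at equal totals 10 rose and none fell, beside 54.5% and 21.9%. Relative to DCVC, DCVC_LPS had 2 that rose and 2 that fell, beside 29.9% and 32.2%. At equal totals 1 rose and 4 fell relative to DCVC, beside 16.3% and 52.7%. Its median change was -1.31 with LPS and 1.09 in DCVC_LPS relative to LPS.

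MSMO1, the C-4 methylsterol oxidase, had 1123, 2000 and 2830 in Control, 1107, 2293 and 4218 in DCVC, 144, 507 and 943 in LPS, and 938, 2204 and 4772 in DCVC_LPS. LPS lay below Control and DCVC without overlap and met DCVC_LPS only at its lowest library. MSMO1 fell by 2.03 ± 0.41 with LPS (limma adjusted p = 8.22e-05) and was 2.27 ± 0.41 higher in DCVC_LPS than in LPS (limma adjusted p = 2.46e-05). LPS after DCVC changed it by -0.02 ± 0.41 (limma adjusted p = 0.964).

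HSD17B7, which reduces the C-3 ketone during demethylation, had 167, 230 and 340 in Control, 242, 377 and 621 in DCVC, 45.6, 61.3 and 106 in LPS, and 163, 328 and 558 in DCVC_LPS. Every LPS library was below every library of the other groups. It fell by 1.85 ± 0.26 with LPS (limma adjusted p = 7.4e-07) and was 2.30 ± 0.26 higher in DCVC_LPS than in LPS (limma adjusted p = 3.27e-08). Its rise of 0.69 with DCVC lost its call without any of 5 single libraries, namely DCVC replicates A and B and Control replicates D, E and F, with 0.56 and an adjusted p of 0.0805 without DCVC replicate B. Its pseudogene HSD17B7P2 had a mean of 15.4 against 275, so some of its reads could be shared.

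SQLE, which epoxidises squalene, was the gene of the arm that rose in each pairwise comparison, with 7887, 17547 and 23344 in Control, 18432, 37604 and 47496 in DCVC, 17303, 23175 and 27895 in LPS, and 40644, 63175 and 70221 in DCVC_LPS. DCVC_LPS stood above LPS and Control without overlap, and the other neighbours in this order overlapped. Per kilobase of exon its mean was 3849 in Control and 13924 in DCVC_LPS, the highest of the 31 genes in both. SQLE rose by 1.12 ± 0.23 with DCVC (limma adjusted p = 0.000204) and by 1.35 ± 0.23 in DCVC_LPS relative to LPS (limma adjusted p = 1.25e-05). Its rise of 0.57 with LPS was 0.09 at equal totals (adjusted p 0.713) and -0.03 within letters A and B, and it lost its call without Control replicate E or F or LPS replicate C or D, with 0.37 and an adjusted p of 0.104 without Control replicate F.

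LSS closes squalene epoxide into lanosterol. Its lowest and highest levels were 344 and 945 in Control, 463 and 1329 in DCVC, 1847 and 2236 in LPS, and 1054 and 1545 in DCVC_LPS. LPS held the highest libraries without overlap. LSS rose by 1.76 ± 0.21 with LPS (limma adjusted p = 3.53e-08), by 0.58 in DCVC_LPS relative to DCVC, and fell by 0.70 ± 0.21 in DCVC_LPS relative to LPS (limma adjusted p = 0.00456), where equal totals gave -0.27 (adjusted p 0.244). At equal totals its change in DCVC_LPS relative to DCVC was 0.28 (adjusted p 0.221), and without DCVC replicate F that change was 0.41 (adjusted p 0.067). Its rise of 0.48 with DCVC had an adjusted p of 0.0497 and lost its call in 20 of 24 removals of a single library, with 0.33 and an adjusted p of 0.156 without Control replicate F.

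FDFT1, the squalene synthase, fell by 1.31 with LPS, rose by 0.86 with DCVC and was 1.88 higher in DCVC_LPS than in LPS. Its means were 4333 ± 610, 8009 ± 2031, 1761 ± 322 and 6751 ± 2400 (SD, n = 6) in Control, DCVC, LPS and DCVC_LPS, and its DCVC libraries all lay above those of Control. Further down the route SC5D, EBP, DHCR7 and TM7SF2, which introduce, move or reduce double bonds of the sterol rings, fell with LPS, with changes of -2.21, -1.99, -1.40 and -1.08. In DCVC_LPS they were 2.18, 0.78, 1.09 and 0.97 higher than in LPS, and EBP and TM7SF2 also fell with LPS after DCVC, with changes of -0.94 and -0.50. TM7SF2 also rose by 0.39 with DCVC, a call lost without DCVC replicate A or B or Control replicate C, D or F, with 0.31 and an adjusted p of 0.0813 without DCVC replicate B.

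NSDHL, the partner of HSD17B7 in demethylation, rose by 0.73 with DCVC and by 0.70 in DCVC_LPS relative to LPS, and its change with LPS was 0.13 (limma adjusted p = 0.596), or -0.35 at equal totals. CYP51A1, the lanosterol demethylase, rose by 0.78 in DCVC_LPS relative to LPS (limma adjusted p = 0.0411), a call lost in 7 of 24 removals of a single library, namely LPS replicates C, D, E and F and DCVC_LPS replicates A, B and E, with 0.61 and an adjusted p of 0.113 without DCVC_LPS replicate B. CYP51A1 shares 79.4% of its exon bases with a readthrough gene on the same strand, so its level depends on how shared reads were counted.

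**Figure D2:**
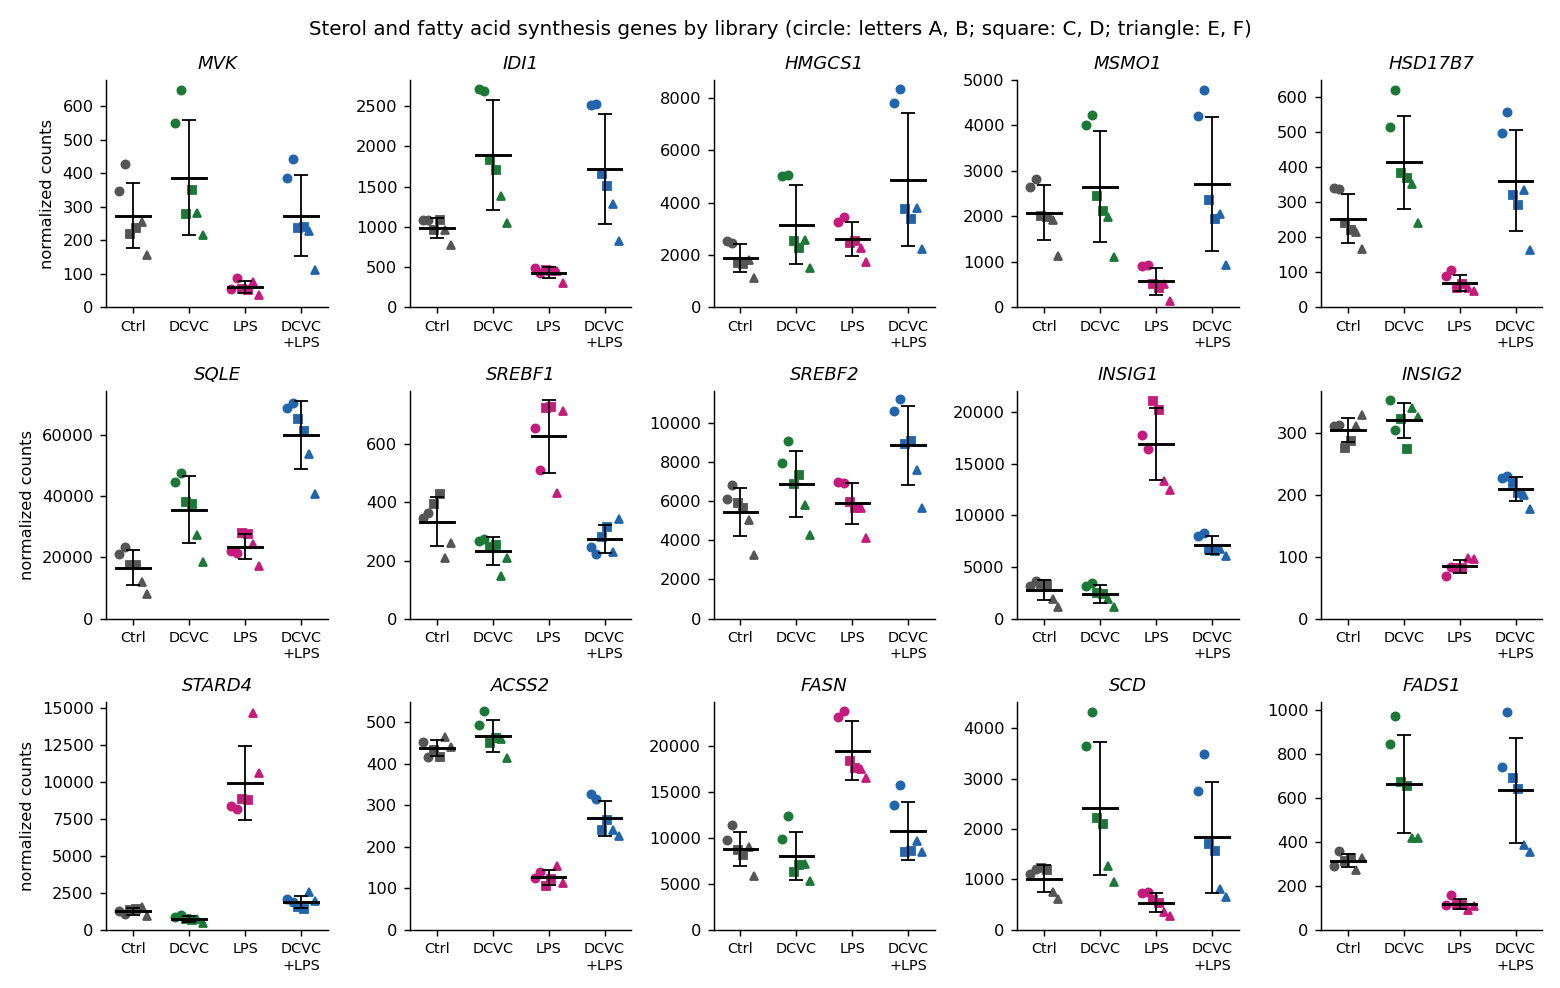
Normalized counts (vertical axis, linear, from 0) of 15 genes in each of the 24 libraries by group (horizontal axis), with the letter pair as symbol and the group mean ± SD as bars, n = 6. LPS libraries of MVK, IDI1, HSD17B7, INSIG2, ACSS2 and FADS1 lie below all others, and those of SREBF1, INSIG1, STARD4 and FASN lie above all others. Relative to Control alone, 28.1% of all tested genes had all LPS libraries lower and 28.7% had all of them higher. Letters A and B are often the highest within a group.

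The 5 regulators were called in both directions. With LPS, 2 rose, 1 fell and 2 were not called, beside 37.8% of all tested genes raised and 40.6% lowered. At equal totals 2 rose and 2 fell, beside 22.4% and 59.5%. In DCVC_LPS relative to LPS 2 rose, 2 fell and 1 was not called, beside 33.3% raised and 39.4% lowered. There 3 rose and 2 fell at equal totals, beside 54.5% and 21.9%. With DCVC 1 fell and none rose, beside 32.2% lowered and 27.5% raised, while at equal totals 3 rose and none fell, beside 46.1% and 20.1%.

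SREBF1, which encodes the SREBP-1 factors linked mainly to fatty acid synthesis, had 210, 355 and 429 in Control, 148, 250 and 273 in DCVC, 434, 685 and 727 in LPS, and 221, 264 and 342 in DCVC_LPS. LPS was above all other groups without overlap, and the other groups overlapped. SREBF1 rose by 0.93 ± 0.18 with LPS (limma adjusted p = 4.46e-05), fell by 1.19 ± 0.18 in DCVC_LPS relative to LPS (limma adjusted p = 1.81e-06), and fell by 0.50 with DCVC. The fall with DCVC was -0.26 at equal totals (adjusted p 0.196) and -0.38 without DCVC replicate E (adjusted p 0.0584).

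SREBF2, which encodes the SREBP-2 factor linked mainly to cholesterol synthesis, had 3243, 5757 and 6819 in Control, 4252, 7110 and 9047 in DCVC, 4131, 5801 and 6957 in LPS, and 5663, 8986 and 11219 in DCVC_LPS. All 4 groups overlapped. It rose by 0.58 ± 0.19 in DCVC_LPS relative to LPS (limma adjusted p = 0.00809). Its other changes were 0.12 with LPS, 0.33 with DCVC and 0.37 in DCVC_LPS relative to DCVC, each past the threshold with the block (limma adjusted p = 0.0214, 3.16e-06 and 5.44e-07). At equal totals they were -0.35, 0.58 and 0.07, of which the change with DCVC was called (adjusted p 0.00661).

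INSIG1, itself a target of SREBP, had 1154, 3181 and 3674 in Control, 1105, 2408 and 3483 in DCVC, 12509, 17140 and 21087 in LPS, and 6102, 6790 and 8318 in DCVC_LPS. The LPS groups stood above those without LPS, LPS above DCVC_LPS, with no overlap. INSIG1 rose by 2.70 ± 0.25 with LPS (limma adjusted p = 4.39e-10) and by 1.64 ± 0.25 with LPS after DCVC (limma adjusted p = 3.88e-06), and fell by 1.23 ± 0.25 in DCVC_LPS relative to LPS (limma adjusted p = 0.000111).

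INSIG2, its close relative, moved the other way, with 275, 311 and 328 in Control, 274, 323 and 353 in DCVC, 69.4, 82.2 and 97.4 in LPS, and 177, 210 and 230 in DCVC_LPS. Control and DCVC overlapped, DCVC_LPS lay below both, and LPS lay below DCVC_LPS. INSIG2 fell by 1.84 ± 0.09 with LPS (limma adjusted p = 1.45e-15) and fell by 0.61 ± 0.09 with LPS after DCVC (limma adjusted p = 1.85e-06), and was 1.30 ± 0.09 higher in DCVC_LPS than in LPS (limma adjusted p = 4.07e-12). SCAP, the escort protein, changed by -0.07 with LPS and 0.13 with DCVC, both not called, and fell by 0.32 in DCVC_LPS relative to DCVC. In DCVC_LPS relative to LPS it changed by -0.13 (limma adjusted p = 0.166), which was 0.30 and called at equal totals (adjusted p 0.0036), and with LPS it changed by -0.55 at equal totals (adjusted p 4.76e-06).

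STARD4, which carries sterol between membranes, had 913, 1294 and 1567 in Control, 429, 715 and 1016 in DCVC, 8178, 8796 and 14687 in LPS, and 1372, 1930 and 2526 in DCVC_LPS. Its LPS libraries stood far above all others, and DCVC_LPS above DCVC without overlap. STARD4 rose by 2.97 ± 0.18 with LPS (limma adjusted p = 1.38e-13) and by 1.38 ± 0.18 with LPS after DCVC (limma adjusted p = 4.03e-07). It fell by 0.80 ± 0.18 with DCVC (limma adjusted p = 0.000536) and fell by 2.39 ± 0.18 in DCVC_LPS relative to LPS (limma adjusted p = 2.36e-11).

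The fatty acid arm, 8 genes of which 7 were tested, held genes that moved either way. With LPS the enzyme genes ACLY, ACACA and FASN rose and ACSS2 and the desaturases SCD, FADS1 and FADS2 fell, except that at equal totals ACLY stood at -0.02 and ACACA at 0.14, both not called. In DCVC_LPS relative to LPS each of the 7 was called in the opposite direction, except that ACLY turned from -0.20 to 0.23 at equal totals. Of all tested genes, 37.8% rose and 40.6% fell with LPS, or 22.4% and 59.5% at equal totals. In DCVC_LPS relative to LPS 33.3% of them rose and 39.4% fell, or 54.5% and 21.9% at equal totals. These comparisons share the LPS libraries, so the opposite signs are not independent of each other.

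ACSS2, which makes acetyl-CoA from acetate, had 415, 436 and 464 in Control, 413, 460 and 527 in DCVC, 105, 122 and 154 in LPS, and 225, 252 and 326 in DCVC_LPS. Control and DCVC overlapped, and DCVC_LPS and then LPS lay below them without overlap. It fell by 1.80 ± 0.10 with LPS (limma adjusted p = 1.33e-14) and fell by 0.81 ± 0.10 with LPS after DCVC (limma adjusted p = 1.06e-07).

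FASN, the fatty acid synthase, had 5809, 8802 and 11415 in Control, 5279, 7064 and 12315 in DCVC, 16513, 17962 and 23831 in LPS, and 8412, 9103 and 15772 in DCVC_LPS. LPS was above every other group, and the other groups overlapped. FASN rose by 1.16 ± 0.19 with LPS (limma adjusted p = 5.42e-06) and fell by 0.89 ± 0.19 in DCVC_LPS relative to LPS (limma adjusted p = 0.000192). Its rise of 0.44 with LPS after DCVC (limma adjusted p = 0.0478) was 0.14 at equal totals (adjusted p 0.498) and lost its call in 15 of 24 removals of a single library, with 0.32 and an adjusted p of 0.143 without DCVC_LPS replicate B.

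SCD, which puts the first double bond into stearate, had 620, 1152 and 1227 in Control, 947, 2153 and 4323 in DCVC, 282, 563 and 742 in LPS, and 659, 1637 and 3493 in DCVC_LPS. Neighbouring groups overlapped, and DCVC lay above LPS. SCD rose by 1.10 ± 0.38 with DCVC (limma adjusted p = 0.0162) and by 1.62 ± 0.38 in DCVC_LPS relative to LPS (limma adjusted p = 0.00057), and fell by 0.96 ± 0.38 with LPS (limma adjusted p = 0.0258). The rise with DCVC was 0.89 without DCVC replicate B (adjusted p 0.0513), and the fall with LPS was -0.79 without LPS replicate F (adjusted p 0.0706) and also lost its call without LPS replicate E.

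FADS1, the delta-5 desaturase, had 273, 319 and 357 in Control, 419, 665 and 976 in DCVC, 90.8, 113 and 160 in LPS, and 353, 667 and 993 in DCVC_LPS. Its groups without LPS separated, with DCVC above Control, and LPS was below all others. FADS1 fell by 1.44 ± 0.22 with LPS (limma adjusted p = 2.06e-06), rose by 1.02 ± 0.22 with DCVC (limma adjusted p = 0.000348) and by 2.37 ± 0.22 in DCVC_LPS relative to LPS (limma adjusted p = 8.74e-10), and changed by -0.09 ± 0.22 with LPS after DCVC (limma adjusted p = 0.747).

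FADS2, the delta-6 desaturase on the neighbouring strand, fell by 1.61 ± 0.50 with LPS and rose by 1.72 ± 0.50 in DCVC_LPS relative to LPS. It shares 490 exon bases with FADS1, so reads of this stretch cannot be assigned without strand. ACLY, which makes cytosolic acetyl-CoA from citrate, rose by 0.46 with LPS, which equal totals took to -0.02, and by 0.22 with DCVC, a call lost without DCVC replicate B (0.17, adjusted p 0.0663) or Control replicate F. Its fall of 0.20 in DCVC_LPS relative to LPS was 0.23 at equal totals and lost its call without LPS replicates A or B or DCVC_LPS replicates C, D, E or F, with -0.16 and an adjusted p of 0.0789 without LPS replicate B. ACACA, the acetyl-CoA carboxylase, rose by 0.62 with LPS, fell by 1.07 in DCVC_LPS relative to LPS and fell by 0.39 in DCVC_LPS relative to DCVC, the last lost without DCVC replicate B (-0.33, adjusted p 0.0566) or DCVC_LPS replicate C or D. ELOVL6, the elongase of palmitate, was not tested, since it had 0 reads in Control and in DCVC_LPS, 1 in DCVC and 6 in LPS.

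Whether LPS acted differently with and without DCVC was tested by the interaction, the LPS change after DCVC minus the LPS change without it. It was above 0 for 11 of 31 genes and below 0 for 7, against 22.0% and 23.7% of all tested genes, with a median of 0.43. The positive ones were genes whose fall with LPS was smaller after DCVC, led by MSMO1 at 2.01 ± 0.58 (limma adjusted p = 0.00642), SC5D at 1.94 ± 0.38 (limma adjusted p = 0.000205), MVK at 1.63 ± 0.43 (limma adjusted p = 0.00323) and HSD17B7 at 1.61 ± 0.37 (limma adjusted p = 0.0011). The negative ones included STARD4 at -1.59 ± 0.26 (limma adjusted p = 2.08e-05), LSS at -1.18 ± 0.30 (limma adjusted p = 0.00217) and INSIG1 at -1.06 ± 0.35 (limma adjusted p = 0.017), whose rise with LPS was smaller after DCVC. ACACA, at -1.01 ± 0.20 (limma adjusted p = 0.00027), rose with LPS alone and fell with LPS after DCVC. For SQLE and HMGCS1 the interaction was 0.23 ± 0.33 (limma adjusted p = 0.6) and 0.12 ± 0.43 (limma adjusted p = 0.847), which does not show that their changes were alike.

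At equal totals the interaction was above 0 for 13 genes and below 0 for 4, against 33.1% and 16.1% of all tested genes. FDPS and DHCR7 passed the threshold there, and SREBF1, ACLY and FASN lost their calls with adjusted p of 0.0905, 0.0747 and 0.0871. With the letter as a block it was above 0 for 17 and below 0 for 8, against 28.2% of all tested genes in either direction. Without letter C, 4 genes were below 0. Single libraries decided the call of FASN (8 of 24 removals, up to an adjusted p of 0.0609 and -0.59 without DCVC replicate B), of TM7SF2 (5 of 24, 0.0536 and 0.50 without Control replicate E) and of SREBF1 (1 of 24, 0.0554 and -0.56 without Control replicate E).

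**Figure D3:**
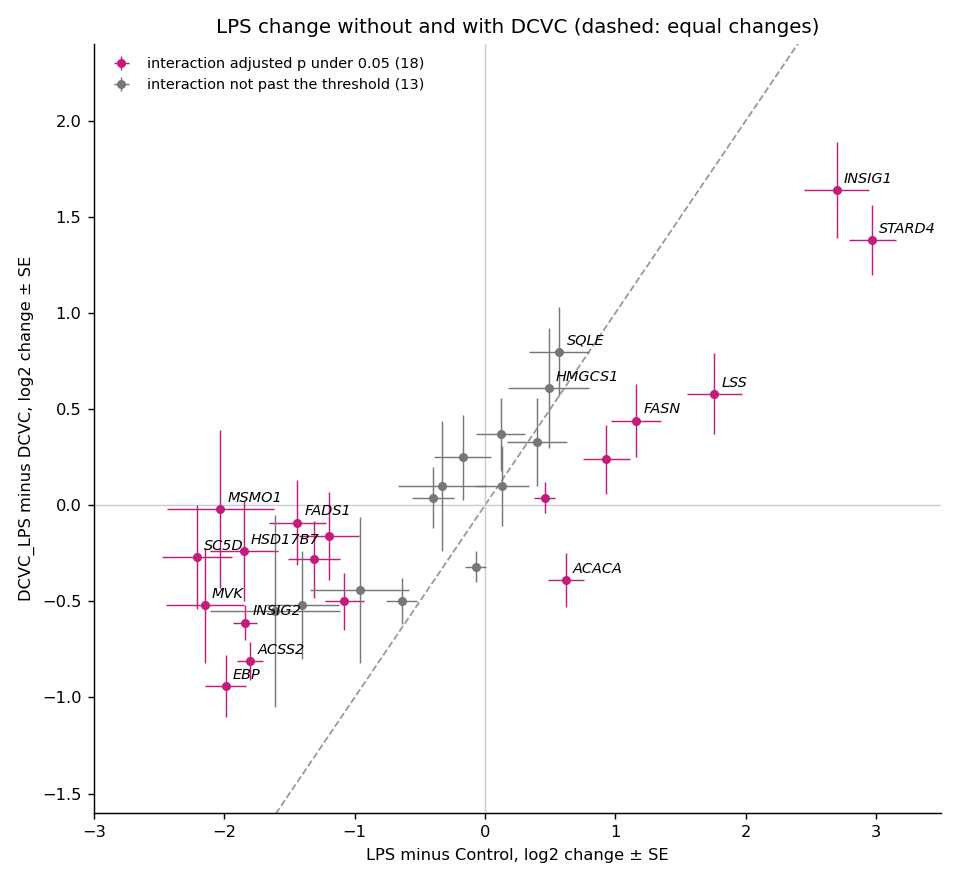
Log2 change ± SE with LPS alone (horizontal axis) and with LPS after DCVC (vertical axis) for the 31 tested genes, with the dashed line at equal changes and colour for the 18 genes with an interaction past the threshold. INSIG1 and STARD4 lie to the right of the line at 2.70 and 2.97 against 1.64 and 1.38, and MSMO1 and SC5D lie above it at -2.03 and -2.21 against -0.02 and -0.27.

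The level of these genes also followed the replicate letter. Letter F had the lowest level of 24, 25, 21 and 23 of the 31 genes in Control, DCVC, LPS and DCVC_LPS, beside 21.9% to 26.2% of all tested genes. Letter B had the highest level of 19, 26, 16 and 26 of them, beside 19.6% to 26.6% of all tested genes. The median difference between DCVC and Control of the same letter was 0.53, 0.51, 0.25, 0.26, 0.12 and 0.27 for letters A to F. SCD, for example, differed by 1.71 and 1.85 in letters A and B and by 0.76 and 0.61 in letters E and F, and SQLE by 1.02 to 1.22 in all 6. Between DCVC and Control, 15 genes were higher and 2 lower in every letter, beside 28.3% and 33.5% of all tested genes. All DCVC libraries lay above all Control libraries for 2 genes and below them for 0, beside 16.6% and 19.8% of all tested genes. What the letters have in common is not stated by the labels.

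**Figure D4:**
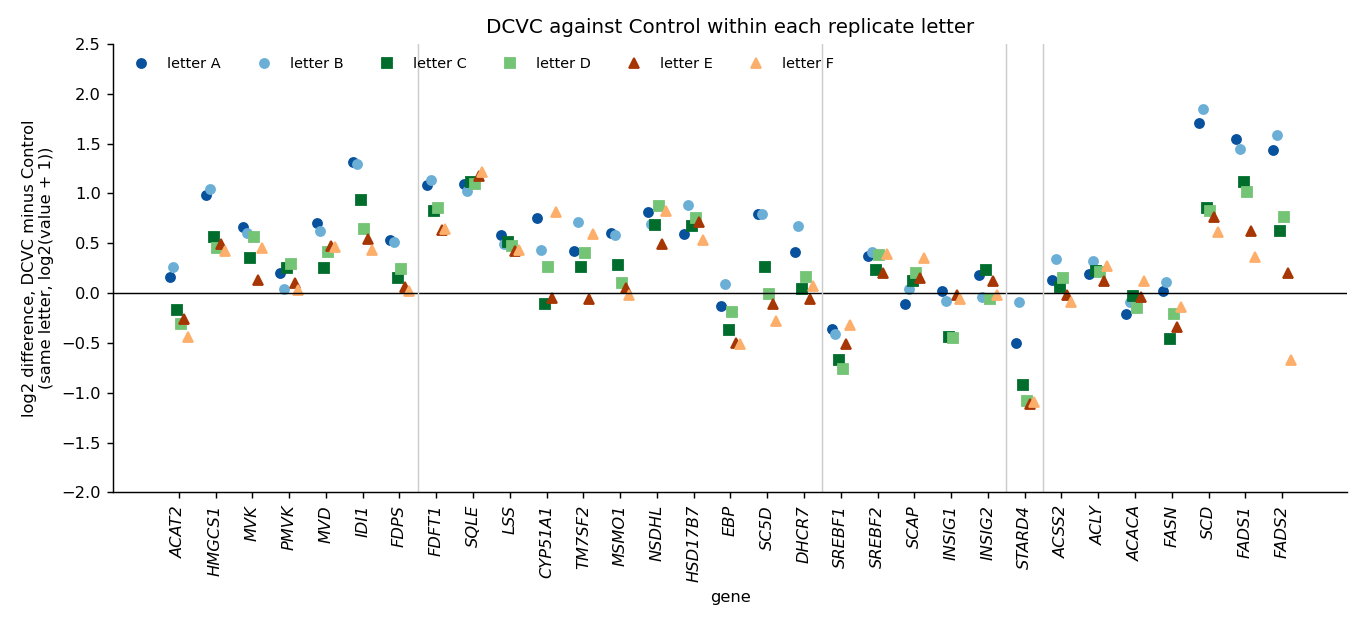
Difference in log2(value + 1) between the DCVC and the Control library of the same letter (vertical axis) for the 31 tested genes (horizontal axis, in pathway order), with 1 point per letter. SQLE lies between 1.02 and 1.22 in every letter, while SCD, FADS1 and FADS2 are highest in letters A and B, with FADS2 at -0.67 in letter F.

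Genes around the pathway were described from lists beside the 32. Their counts stand beside 37.8% of all tested genes raised and 40.6% lowered with LPS, or 22.4% and 59.5% at equal totals, and beside 33.3% raised and 39.4% lowered in DCVC_LPS relative to LPS, or 54.5% and 21.9% at equal totals. Of 10 genes for SREBP processing and turnover, 6 rose and 3 fell with LPS, and 3 rose and 6 fell in DCVC_LPS relative to LPS. RNF145, a ubiquitin ligase that acts on SCAP, rose by 1.77 with LPS, fell by 1.04 with DCVC and fell by 2.02 in DCVC_LPS relative to LPS, while ERLIN2, part of the machinery that degrades sterol-regulated proteins, fell by 1.28 with LPS. Of 13 genes of the isoprenoid, dolichol and ubiquinone branches, 3 rose and 4 fell with LPS, with the 2 subunits of the ubiquinone side-chain synthase apart, PDSS1 at 2.60 and PDSS2 at -1.64. At equal totals 2 of the 10 processing genes rose and 5 fell with LPS, and 2 of the 13 branch genes rose and 10 fell. For DCVC_LPS relative to LPS, equal totals gave 3 processing genes that rose and 4 that fell.

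Of 22 tested genes for fatty acid elongation, activation and glycerolipid synthesis, 9 rose and 10 fell with LPS. The acyl-CoA synthetase gene ACSL1 rose by 4.19 and the elongase gene ELOVL7 by 4.85, and after DCVC they rose with LPS by 3.37 and 4.88. Of 17 genes of fatty acid oxidation, the route that breaks fatty acids down, 3 rose and 11 fell with LPS, and at equal totals 1 rose and 15 fell. The carnitine carrier gene SLC25A20 fell by 2.80. In DCVC_LPS relative to LPS, 8 of the 17 rose and 3 fell, with the carnitine palmitoyltransferase gene CPT2 at 0.96, and at equal totals 15 rose and none fell.

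Of 7 genes for the liver X receptors and cholesterol efflux, 2 rose and 2 fell with LPS, and at equal totals 1 rose and 4 fell. The efflux pump gene ABCA1 rose by 3.20, and RXRA, the gene of the receptors' partner, fell by 3.01. In DCVC_LPS relative to LPS, 2 of the 7 rose and 4 fell, and at equal totals 2 rose and 1 fell. Of 11 genes for esterification, hydroxylation and lysosomal export, 3 rose and 4 fell with LPS, and 4 rose and 3 fell in DCVC_LPS relative to LPS. At equal totals the raised and lowered were 3 and 8 with LPS, and 9 and 2 in DCVC_LPS relative to LPS. The oxysterol hydroxylase gene CYP7B1 rose by 5.10 with LPS and fell by 1.87 in DCVC_LPS relative to LPS. CH25H, which makes 25-hydroxycholesterol, an oxysterol that holds back SREBP, fell by 4.21 ± 0.50 with DCVC (limma adjusted p = 1.47e-07). NPC1, which exports cholesterol from lysosomes, was 1.10 higher in DCVC_LPS than in LPS. With DCVC alone, beside 27.5% and 32.2% of all tested genes, the genes raised and lowered were 1 and 5 of the 10 for SREBP processing, 5 and 3 of the 13 isoprenoid genes, 9 and 7 of the 22 fatty acid and glycerolipid genes, 3 and 7 of the 17 oxidation genes, 2 and 1 of the 7 efflux genes and 3 and 4 of the last 11. In the same order, equal totals, where 46.1% and 20.1% of all genes were called, gave 5 and 3, 7 and 1, 11 and 3, 7 and 4, 3 and 0, and 5 and 1.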

How the data were processed

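The deposited signal is a normalized count per gene and library, made by the authors. The build hg38 and, without roles, the tools STAR, featureCounts 1.6.1, DESeq2 1.24.0, R 3.6.0, FastQC 0.11.5 and MultiQC 0.9 are named per the submitters' processing notes. Which STAR version, annotation and strand setting were used is not given in the sources used here. That values are whole reads divided by a factor was read from the deposited values, of which 100% came out whole within 0.1 read. Of 58381 entries, 19595 (33.56%) had no gene name and held 0.99% of the values. They were left out, and 51 symbols on 2 entries were summed.

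A gene was tested when its mean over all 24 libraries was 10 or more, on log2(value + 1), a scale that understates changes of low genes, with limma 3.58.1 in R 4.3.3. All 4 groups shared 1 fit with 20 residual degrees of freedom, and p-values were Benjamini-Hochberg adjusted over 13900 genes at 0.05. The fit was tested on simulated data without a letter effect, which cannot show how it handles libraries that share a letter. edgeR 4.0.16 and DESeq2 1.42.0 on the recovered reads, other scalings, filters and pseudocounts, the replicate letter as a block and fits without libraries were alternatives. Gene positions and exon overlaps came from the hg38 annotation in the reference used here, and promoter sequences from RefSeq.

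The letters come from the sample titles. Deviations from the group means correlated between libraries of the same letter in all 36 pairs (0.134 to 0.539, median 0.33), so the letters were taken to pair the libraries in the fits with a block. The main fit, which gave the counts, SE and calls not marked otherwise, left the letter out. The other letter of A and B, C and D, or E and F correlated at 0.0522 to 0.464 (median 0.286), and 18 of 24 libraries correlated best with their own letter, so the shared unit may be the pair of letters, and block p-values that count 6 letters may then be too small.

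The genes, lists and comparisons were chosen with earlier results of these data known. Genes given in full were, in each arm, the 2 with the largest called change in any pairwise comparison, and always SREBF1, SREBF2, INSIG1, INSIG2, SCD, FASN, SQLE and HMGCS1. Of each other list, at most 2 genes with the smallest adjusted p in a comparison were named.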

Additional observations from a re-analysis of the deposited data

Results flagged for a closer look

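The response to LPS differed with and without DCVC by a direct test for 18 of the 31 genes (limma interaction, adjusted p under 0.05). On the log2 scale it was higher after DCVC by 2.01 for MSMO1, 1.94 for SC5D, 1.63 for MVK, 1.61 for HSD17B7, 1.35 for FADS1, 1.23 for INSIG2, 1.05 for EBP, 1.04 for IDI1, 1.02 for FDFT1, 0.99 for ACSS2 and 0.58 for TM7SF2. It was lower after DCVC for STARD4 at -1.59, LSS at -1.18, INSIG1 at -1.06, ACACA at -1.01, FASN at -0.72, SREBF1 at -0.69 and ACLY at -0.42. Of all tested genes, 22.0% had an interaction called above 0 and 23.7% below 0. A single library stood apart in 2 of 124 groups of 6 by Dixon's test, which chance does in about 1 of 20. These were the lowest IDI1 library in LPS, letter F, at 305 normalized counts, and the highest FADS1 library in LPS, letter B, at 160.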

How the results depend on the processing

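TMM factors, other pseudocounts and filters, edgeR and DESeq2 on the recovered reads, and fits of only the groups compared left every count and median of these genes within 1.5 times or 1 SD of the value reported. Scaling to equal totals did not. With LPS it gave 5 raised genes and a median of -0.88 (the same median with the block added), with DCVC 19 raised and 1 lowered, in DCVC_LPS relative to LPS a median of 1.21 (also with the block), in DCVC_LPS relative to DCVC 3 raised and 11 lowered, and in the interaction 4 below 0. The cause was not tested, and the shares of all tested genes at equal totals stand beside the same counts above. The replicate block raised the counts to 18 raised with DCVC, 9 raised and 13 lowered in DCVC_LPS relative to DCVC, and 17 above 0 in the interaction. Beside these stood 31.4%, 33.6%, 36.5% and 28.2% of all tested genes. The replicate block at equal totals gave 25 raised and 1 lowered with DCVC, 20 lowered in DCVC_LPS relative to DCVC, and 20 above 0 in the interaction. Of the 13900 genes tested, that setting gave 6946 raised with DCVC, 7970 lowered in DCVC_LPS relative to DCVC and 5574 above 0 in the interaction.

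Within letters A and B, C and D, and E and F, which leave 2 libraries per group, DCVC gave 21, 17 and 4 raised, with 6 lowered in C and D and 1 in E and F. The interaction gave 18, 17 and 6 above 0, with 2 below 0 in E and F. Of all tested genes, E and F gave 2294 raised with DCVC, and 1281 above and 1578 below 0 in the interaction. DCVC_LPS relative to DCVC gave 8 raised in A and B, and 10 raised and 14 lowered in C and D. Within A and B, and within C and D, the counts over all tested genes stayed within 1.5 times those of the fit of all letters. The same held for all tested genes lowered with DCVC within E and F. Leaving out 1 letter or 1 library gave 5 to 13 raised and 1 to 2 lowered with DCVC, 3 to 7 raised in DCVC_LPS relative to DCVC, and 4 to 8 below 0 in the interaction. For all tested genes these ranges were, in the same order, 3338 to 3869, 4018 to 4515, 3812 to 4201 and 2813 to 3392.

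Over all alternatives the change crossed 0 for 5 of 31 genes with LPS, 8 with DCVC, 3 in DCVC_LPS relative to LPS, 10 in DCVC_LPS relative to DCVC and 4 in the interaction. Where either value was called, the turns were these, and the cause was not tested. At equal totals, with or without the block, ACLY stood at -0.02 with LPS, 0.23 in DCVC_LPS relative to LPS and -0.26 in DCVC_LPS relative to DCVC, and SCAP at 0.30 in DCVC_LPS relative to LPS. Equal totals also turned NSDHL and SREBF2 to -0.35 each with LPS, ACACA to 0.18 with DCVC, and FDPS and NSDHL to -0.25 and -0.20 in DCVC_LPS relative to DCVC, values that were called only with the block added. Within letters A and B, SQLE stood at -0.03 with LPS and ACAT2 at 0.21 with DCVC. Turns at equal totals with no call at either scaling in the fit without the block were those of ACAT2 (all comparisons but DCVC_LPS relative to DCVC), INSIG1 and FASN (with DCVC), MVD, CYP51A1 and SREBF1 (in DCVC_LPS relative to DCVC) and NSDHL (in the interaction). ELOVL6, with at most 6 reads in a group, was too shallow to test.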
